A study of Mus musculus with 12 samples.

Results

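ATF4 is a transcription factor, and the genes described here are Atf4 itself, 4 stress-response genes commonly counted among its targets, and 5 enzymes that make asparagine, serine and mitochondrial folate intermediates. They were taken by gene symbol, as a set chosen with earlier results of these data known: Atf4, Trib3, Ddit3, Chac1, Sesn2, Asns, Phgdh, Psat1, Psph and Mthfd2. These 10 genes occupied 11 of the 56748 rows of the deposited table, because Ddit3 was listed under a second identifier, ENSMUSG00000116429, with a length of 105 bases and an FPKM of 0 in all 12 libraries. All 10 genes passed the filter on low values that left 12661 genes for testing.

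The 12 libraries came from the mouse melanoma line 4599 and fell into 4 groups of 3. Cells of the TB, PIF and DIF groups came from orthotopic melanomas and cells of the Met group from melanoma lung metastases; the labels do not spell out these abbreviations and name no genotype, age or agent that sets the groups apart. Before lysis every group was put on a fibrillar collagen from cattle skin at 1.7 mg/ml, for 24 h in medium with 10% serum and a further 24 h with 1% serum, so the values describe cells in culture on a common substrate and not RNA taken straight from a tumour. A single line was used, and nothing says that the libraries within a group are separate animals or cultures. The p-values thus reflect variation between the present libraries, and this variation may be technical.

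ATF4 is the main transcriptional effector of the integrated stress response. When kinases phosphorylate the initiation factor eIF2 during amino acid shortage, endoplasmic reticulum stress, viral infection or heme deficiency, general translation falls while the upstream reading frames of Atf4 mRNA let its protein be made in larger amount. ATF4 then pairs with other leucine zipper proteins at C/EBP-ATF response elements and raises transcription of genes for amino acid synthesis, uptake and tRNA charging. A change of ATF4 protein can therefore occur without a matching change of its mRNA, and the present data measure mRNA only.

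For the promoters, the RefSeq table of the GRCm38.p6 build held 11 entries for the 10 genes, including an alternative start of Psat1. The letters TGATGNAA, the core of the C/EBP-ATF response element, were searched on both strands in the 250 bases before each start and stood in 1134 of 32851 promoters of the same length (3.45%). Asns and Chac1 held them. Shown are the stretches around each match, written along the strand of the gene, with the matching letters in capitals; in Chac1 the element reads on the opposite strand, as TGATGCAA.

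Asns (chr6:7693210-7693272, minus strand, match beginning 23 bases before the start): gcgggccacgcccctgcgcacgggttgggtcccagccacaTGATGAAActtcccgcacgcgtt
Chac1 (chr2:119351009-119351096, plus strand, 193 bases before the start): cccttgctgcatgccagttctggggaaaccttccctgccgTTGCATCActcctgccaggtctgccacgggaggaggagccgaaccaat

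A second form, TGNTGCAA, was added after the sequences had been read. It stood in 894 of 32851 promoters (2.72%) and overlaps the first form where the letters are TGATGCAA. Chac1, Trib3, Psat1 and Sesn2 held it, and the stretches of Trib3 and Psat1 are shown because both carry the same 8 letters followed by tccc. Psat1 held it only before the start whose stretch is shown, and the window before its other start held neither form.

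Trib3 (chr2:152344061-152344133, minus strand, 33 bases before the start): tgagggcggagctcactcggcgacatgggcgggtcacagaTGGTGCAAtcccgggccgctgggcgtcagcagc
Psat1 (chr19:15925148-15925235, minus strand, 136 bases before the start): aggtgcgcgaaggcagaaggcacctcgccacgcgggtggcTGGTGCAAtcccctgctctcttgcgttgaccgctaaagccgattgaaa

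A match is a description of letters and not a measured binding site. No match, as in the windows of Atf4, Ddit3, Phgdh, Psph and Mthfd2 and of the other Psat1 start, says only that these letters are not in that window.

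Rebuilt reads assigned to genes came to 15.5 to 18.4 M per library, and correlations across genes between libraries of a group were 0.986 to 0.994. The melanoma label rested on Sox10, the neural crest factor of melanocytes, at group means of 217 to 249 FPKM, while the pigment genes Tyrp1 (0 in every library), Tyr, Dct and Mlana were at or near 0. Summed FPKM of 10 melanoma markers was 582 to 627 in PIF, 550 to 576 in TB, 398 to 448 in DIF and 396 to 461 in Met. This order was carried mainly by Gpnmb, a glycoprotein of pigment cells and macrophages, at 170.3 FPKM in PIF, 93.5 in TB, 7.66 in DIF and 6.57 in Met. Other markers had other orders. Mitf was highest in TB, at 15.2 FPKM, with 11.1 in PIF, and like Gpnmb it was far lower in DIF (4.24) and Met (4.25). S100a1 (140.4) had its highest mean in TB and S100b (93.8) in Met. The part of these markers in the results was not tested. Of the other cell types, the summed markers reached at most 14.998 FPKM for fibroblasts, nearly all Col3a1 with Lum, Dcn and Col1a2 near 0. They reached 2.95 for leukocytes, nearly all Cd68, with Adgre1 and Cd3e at 0, and 0.360 for endothelium, with Cldn5 at 0. Lung epithelium reached 0.642, and keratinocytes 3.31, nearly all Krt10, with Krt5, Trp63 and Dsg3 at 0. In bulk RNA, fewer cells that express a gene and less RNA per cell cannot be told apart.

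All 10 genes had their highest mean level in PIF, the next in TB, and the 2 lowest in DIF and Met. limma's moderated F test over the 4 groups, on log2(FPKM + 1) with Benjamini-Hochberg adjustment over all genes tested, called each of them at an adjusted p under 0.05, where 24.8% of all genes were called. The quotient of mean FPKM in PIF over Met ran from 1.42 for Atf4 and 1.48 for Psat1 to 7.21 for Trib3. The added 1 makes a log2 difference smaller than the quotient of mean FPKM for genes at a low level such as Trib3.

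**Figure D1:**
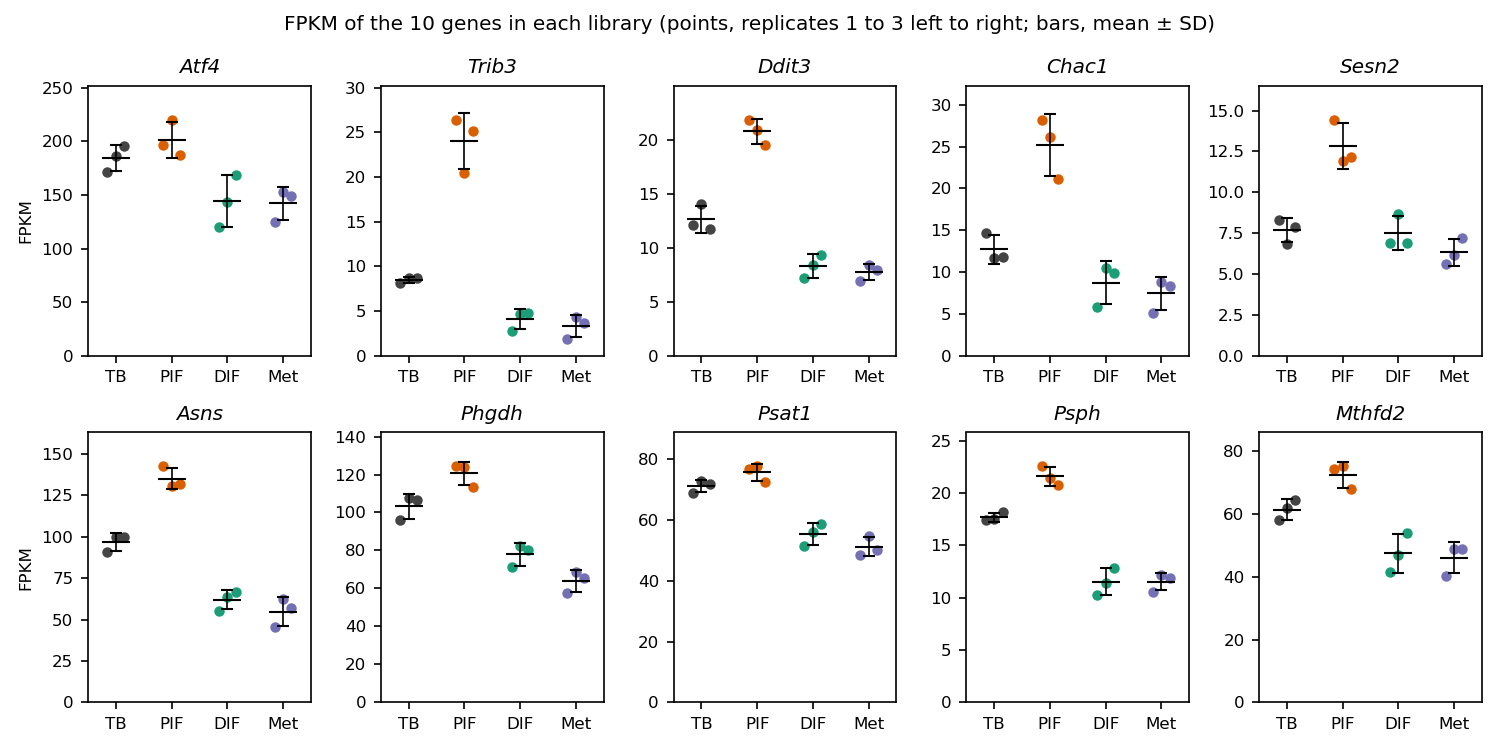
FPKM of the 10 genes in each of the 12 libraries (points), with the mean and SD of each group of 3; each panel has its own linear axis. PIF has the highest mean in every panel, its libraries overlapping with TB for Atf4 and Psat1, and DIF and Met have the lowest means, for Trib3 with libraries at 1.94 to 4.84 FPKM.

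Atf4 (ENSMUSG00000042406; chromosome 15, 80139385 to 80141742, plus strand, as the deposited table lists it) was the most abundant of the 10 per length. Its FPKM was 197, 220.3 and 187 in PIF replicates 1, 2 and 3, 171, 187 and 196 in TB, 120.4, 144 and 169 in DIF, and 125, 153 and 149 in Met. PIF and TB libraries overlapped, whereas every DIF and Met library lay below every TB and PIF library. Each library held 4733 to 9522 Atf4 reads, so counting error was small beside the spread between replicates.

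Atf4 differed by call in only 2 of the 6 comparisons, both of them against PIF. From 201 ± 17.1 FPKM in PIF (mean ± SD, n = 3 here and below) it was lower at 144 ± 24.4 in DIF, a log2 change of −0.49 (SE 0.12, adjusted p = 0.013), and at 142 ± 15.1 in Met (−0.50, adjusted p = 0.013). These calls were narrowly lost without PIF replicate 2 (DIF, adjusted p = 0.0501) and without Met replicate 1 (Met, adjusted p = 0.0521). Against TB, at 185 ± 12.3 FPKM, the changes were −0.36 in DIF (adjusted p = 0.085) and −0.38 in Met (adjusted p = 0.071); with voom on rebuilt reads they passed at 0.0454 and 0.0345, the DIF change also without DIF replicate 3 (0.027) and the Met change also with the 2 groups alone (0.034) and without DIF replicate 1 (0.0339) or 3 (0.0395). PIF minus TB was 0.12, with a 95% interval of −0.14 to 0.38.

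Trib3 encodes a pseudokinase that binds ATF4 and dampens its activity, and it is itself an ATF4 target (ENSMUSG00000032715; chromosome 2, 152179342 to 152185952, minus strand). Its FPKM was 26.4, 20.4 and 25.1 in PIF, 8.13, 8.73 and 8.67 in TB, 2.82, 4.66 and 4.84 in DIF, and 1.94, 4.39 and 3.65 in Met. The PIF, TB and lower groups did not overlap, while DIF and Met did. The mean of 24.0 ± 3.14 in PIF was 2.82-fold that of TB (8.51 ± 0.332), 5.84-fold that of DIF (4.11 ± 1.12) and 7.21-fold that of Met (3.33 ± 1.26). These were the widest quotients among the 10 genes.

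Trib3 rose in PIF against TB by a log2 difference of 1.39 (SE 0.21, adjusted p = 0.0014). It fell in Met against TB by 1.18 (adjusted p = 0.0035) and in DIF against TB by 0.92 (adjusted p = 0.018). The DIF call was lost without TB replicate 2 (0.0649), TB replicate 3 (0.0663) or DIF replicate 1 (0.06) and with no filter on low values (0.0572). Rebuilt Trib3 reads numbered 75 to 959 per library, the fewest in Met replicate 1.

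Ddit3, also called CHOP, encodes a leucine zipper factor of the C/EBP family that rises under prolonged stress (ENSMUSG00000025408; chromosome 10, 127126643 to 127132157, plus strand). Its FPKM was 21.8, 20.9 and 19.5 in PIF, 12.1, 14.03 and 11.7 in TB, 7.18, 8.45 and 9.37 in DIF, and 6.96, 8.45 and 7.93 in Met. Replicates lay close together, and PIF, TB and the lower groups were fully apart. Against TB, Ddit3 rose in PIF by a log2 difference of 0.68 (SE 0.10, adjusted p = 0.0012). Against TB it fell in DIF by 0.55 (adjusted p = 0.0047) and in Met by 0.64 (adjusted p = 0.0014).

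Ddit3 shares 68 bases with Mars1, the cytosolic methionyl-tRNA synthetase on the opposite strand. Mars1 stood at 54.7 FPKM in PIF, 52.0 in TB, 46.8 in DIF and 44.6 in Met, the same order of means as Ddit3. Whether reads were counted by strand is not given in the sources used here, so reads of the shared bases cannot be assigned to either gene with certainty.

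Chac1 encodes an enzyme that cleaves glutathione in the cytosol (ENSMUSG00000027313; chromosome 2, 119181710 to 119184862, plus strand). Its FPKM was 28.2, 26.2 and 21.1 in PIF, 14.6, 11.6 and 11.8 in TB, 5.79, 10.5 and 9.94 in DIF, and 5.17, 8.84 and 8.40 in Met. PIF stood above all other libraries, but replicates within PIF, DIF and Met spread more than for Ddit3. The rise in PIF against TB, 0.93 on the log2 scale (SE 0.22, adjusted p = 0.015), was lost without TB replicate 2 (0.0582), TB replicate 3 (0.0592) or PIF replicate 1 (0.0606) and with no filter (0.0504). Against TB, Chac1 was −0.53 in DIF (adjusted p = 0.17) and −0.72 in Met (adjusted p = 0.058), neither passing the test, although no DIF or Met library reached a TB library. The Met difference passed with voom on rebuilt reads (adjusted p = 0.0303), with the 2 groups alone (0.0426) and without DIF replicate 1 (0.0204).

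Sesn2 encodes sestrin 2, a leucine-binding inhibitor of mTORC1 signalling (ENSMUSG00000028893; chromosome 4, 132219343 to 132237812, minus strand). Its FPKM was 14.4, 11.9 and 12.1 in PIF, 8.29, 6.85 and 7.89 in TB, 6.90, 8.69 and 6.91 in DIF, and 5.60, 6.17 and 7.24 in Met. PIF alone stood apart, and TB, DIF and Met libraries overlapped. Sesn2 rose in PIF against TB by 0.67 (SE 0.11, adjusted p = 0.0026). DIF minus TB was −0.03, with a 95% interval of −0.28 to 0.21, and Met minus TB was −0.24 (adjusted p = 0.21).

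Asns encodes asparagine synthetase, which makes asparagine from aspartate and glutamine (ENSMUSG00000029752; chromosome 6, 7675169 to 7693254, minus strand). Its FPKM was 143, 131 and 132 in PIF, 90.8, 99.7 and 100.2 in TB, 55.5, 63.8 and 66.4 in DIF, and 45.4, 62.2 and 56.9 in Met. PIF, TB and the lower groups were fully apart. Asns rose in PIF against TB by a log2 difference of 0.48 (SE 0.11, adjusted p = 0.011). Against TB it fell in DIF by 0.64 (adjusted p = 0.0028) and in Met by 0.82 (adjusted p = 0.00039). The mean in PIF, 135 ± 6.46 FPKM, was 2.47-fold that in Met, 54.8 ± 8.60, the widest quotient among the 5 enzymes.

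The serine pathway starts with Phgdh, phosphoglycerate dehydrogenase, which takes 3-phosphoglycerate out of glycolysis (ENSMUSG00000053398; chromosome 3, 98220486 to 98247306, minus strand). Phgdh stood at 121 ± 6.05 FPKM in PIF, 103 ± 6.52 in TB, 77.9 ± 6.01 in DIF and 64.0 ± 5.83 in Met. Its libraries ran from 114 to 124 FPKM in PIF, 95.8 to 107 in TB, 71.0 to 82.2 in DIF and 57.5 to 68.8 in Met, with no overlap between any 2 groups. Against TB it fell in DIF by a log2 difference of 0.40 (adjusted p = 0.0098) and in Met by 0.68 (adjusted p = 0.00023). PIF minus TB was 0.22 (adjusted p = 0.097) and passed only with quantile normalization (0.0141) among the alternatives that kept all libraries.

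Psat1, phosphoserine aminotransferase, takes the next step (ENSMUSG00000024640; chromosome 19, 15882042 to 15924701, minus strand). Its FPKM was 76.9, 77.6 and 72.4 in PIF, 68.9, 72.6 and 71.8 in TB, 51.3, 55.9 and 58.5 in DIF, and 48.5, 54.5 and 50.2 in Met. TB and PIF lay next to each other, as did DIF and Met, with a gap between the pairs. Against TB it fell in DIF by 0.36 (SE 0.06, adjusted p = 0.0042) and in Met by 0.47 (adjusted p = 0.00054), whereas PIF minus TB was 0.09 (adjusted p = 0.4).

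Psph, phosphoserine phosphatase, completes serine (ENSMUSG00000029446; chromosome 5, 129842622 to 129864513, minus strand). It stood at 21.6 ± 0.910 FPKM in PIF, 17.7 ± 0.429 in TB, 11.5 ± 1.28 in DIF and 11.5 ± 0.839 in Met. Libraries ran from 20.8 to 22.6 FPKM in PIF, 17.4 to 18.2 in TB and 10.3 to 12.8 over DIF and Met, so the fall against TB, 0.58 on the log2 scale in each (adjusted p = 0.00061 in DIF and 5e-04 in Met), was larger than the spread. The rise in PIF, 0.27 (SE 0.08, adjusted p = 0.036), was lost in 7 of the 12 fits that left out a library: without TB replicate 1 (0.088), 2 (0.109) or 3 (0.0789), PIF replicate 1 (0.121) or 2 (0.063), DIF replicate 2 (0.051) or Met replicate 3 (0.0513). It was also lost with no filter (0.07). Psph shares 452 bases with Cct6a, a chaperonin subunit on the opposite strand that stood at 125 to 130 FPKM in all 4 groups, and without a known strand setting some of those reads could be counted for either gene.

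Mthfd2 encodes the mitochondrial methylenetetrahydrofolate dehydrogenase, which carries on the single-carbon units released from serine (ENSMUSG00000005667; chromosome 6, 83282673 to 83302890, minus strand). It stood at 72.3 ± 4.01 FPKM in PIF, 61.3 ± 3.19 in TB, 47.4 ± 6.26 in DIF and 46.0 ± 4.88 in Met. Libraries ran from 67.7 to 75.1 FPKM in PIF, 57.9 to 64.2 in TB, 41.5 to 53.9 in DIF and 40.3 to 48.8 in Met, so that DIF and Met overlapped only with each other. It fell against TB by 0.37 in DIF (adjusted p = 0.038) and by 0.41 in Met (adjusted p = 0.02), and PIF minus TB was 0.23 (adjusted p = 0.14, but 0.0499 with quantile normalization). The DIF call was lost without TB replicate 1 (0.0521), 2 (0.119) or 3 (0.142), PIF replicate 1 (0.0518), DIF replicate 1 (0.124) or DIF replicate 2 (0.114), and with the 2 groups alone (0.0595). The Met call was lost without TB replicate 2 (0.0709), TB replicate 3 (0.0871) or Met replicate 1 (0.0766); with no filter the values were 0.0883 in DIF and 0.0522 in Met.

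Over the 10 genes, PIF against TB asked what set PIF cells apart on the same collagen. Of the 10, 6 rose (Trib3, Chac1, Ddit3, Sesn2, Asns and Psph) and none fell, where 7.52% of all genes were called higher and 6.58% lower. In 8 of the 10 every PIF library stood above every TB library, as in 15.7% of all genes, Atf4 and Psat1 being the exceptions. The median log2 difference of the 10 was 0.37, against 0.00 over all genes. By role, all 4 stress-response genes rose, with differences of 0.67 to 1.39, and 2 of the 5 enzymes rose.

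DIF against TB and Met against TB share the TB libraries, so their values are given side by side. Against TB, 7 of the 10 fell in DIF and 7 in Met, where 4.36% and 4.63% of all genes were called lower (and 4.26% and 5.32% higher, as none of the 10 was). Both sets consisted of Trib3, Ddit3 and the 5 enzymes, and Atf4, Chac1 and Sesn2 did not pass in either. Libraries did not overlap with TB for 9 genes in each, all but Sesn2, as in 15.1% and 16.2% of all genes. The median log2 difference was −0.47 in DIF and −0.61 in Met.

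Against PIF, all 10 genes fell in DIF and all 10 in Met, where 9.85% and 8.8% of all genes were called lower and 9.03% and 8.85% higher. No library overlapped, as in 15.7% of all genes for each. These comparisons share the PIF libraries. Log2 changes ran from −0.45 for Psat1 to −2.31 for Trib3 in DIF (adjusted p 1.3e-05 for Trib3), and from −0.50 for Atf4 to −2.57 for Trib3 in Met (adjusted p 6.8e-06 for Trib3). Among the stress-response genes the changes in DIF and Met were −1.45 and −1.65 for Chac1, −1.23 and −1.31 for Ddit3, and −0.70 and −0.92 for Sesn2. Among the enzymes they were −1.12 and −1.30 for Asns, −0.86 and −0.85 for Psph, −0.63 and −0.91 for Phgdh, and −0.61 and −0.65 for Mthfd2. The largest adjusted p was 0.013, for Atf4 in both, and that of the other 9 was 0.0011, for Mthfd2 in DIF.

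Met against DIF gave no call among the 10 in limma and none with voom, where 3.86% of all genes were called in either direction. Phgdh alone was under 0.05 before adjustment: it was −0.28 in Met relative to DIF, with a 95% interval of −0.46 to −0.10 and an adjusted p of 0.088. It was also the only one of the 10 whose Met libraries all lay below the DIF libraries, as in 10.9% of all genes, and it passed with quantile normalization (0.0284). The 95% intervals of the others still allowed differences, from −0.72 to 0.20 for Trib3 and −0.66 to 0.28 for Chac1 to −0.16 to 0.17 for Psph.

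**Figure D2:**
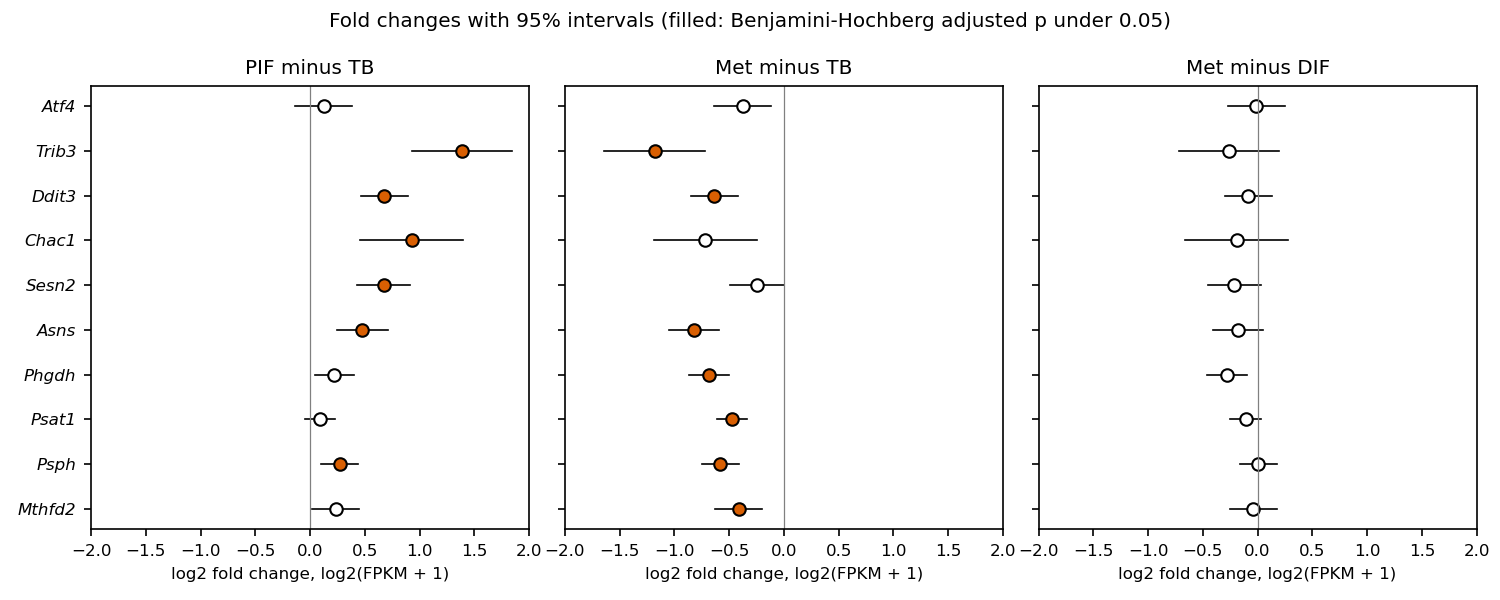
Log2 differences of the 10 genes for PIF minus TB, Met minus TB and Met minus DIF on the log2(FPKM + 1) scale, with 95% intervals; filled points passed an adjusted p under 0.05. PIF minus TB spans 0.09 (Psat1) to 1.39 (Trib3), Met minus TB −1.18 (Trib3) to −0.24 (Sesn2), and no point of Met minus DIF is filled.

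Levels of 4 genes were set beside the Atf4 mRNA of the same library. Per length, Trib3 stood at 12.04 ± 2.39% of the Atf4 FPKM of the same library in PIF, 4.62 ± 0.163% in TB, 2.82 ± 0.451% in DIF and 2.29 ± 0.673% in Met. Asns stood at 67.5 ± 7.05%, 52.5 ± 1.13%, 43.2 ± 3.57% and 38.4 ± 2.18% in the same order, and Ddit3 at 10.3, 6.87, 5.79 and 5.47%. For Trib3, Asns and Ddit3, each PIF library lay above each TB library in this quotient and each TB library above each DIF and Met library. For Chac1, at 12.5, 6.95, 5.99 and 5.18%, each PIF library lay above all others and the remaining groups were not fully apart. These quotients are descriptions, with no test.

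Within groups the same libraries were often the lowest or the highest for several of the 10 genes. DIF replicate 1 was the lowest of its 3 libraries for all 10 genes and Met replicate 1 likewise, where 38.7% and 38.8% of all genes tested were lowest in these libraries. In PIF, replicate 1 was the highest for 7 of the 10 and replicate 3 the lowest for 7, and in TB replicate 1 was the lowest for 7. Trib3 showed the span: 2.82 FPKM in DIF replicate 1 against 4.66 and 4.84 in the other 2, and 1.94 in Met replicate 1 against 4.39 and 3.65. Without DIF replicate 1 and Met replicate 1 together, a choice made after seeing the data, the genes called were 7 of 10 higher in PIF against TB and 6 and 8 lower in DIF and Met against TB. All 10 were still called lower in DIF and in Met against PIF, and none differed between Met and DIF.

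**Figure D3:**
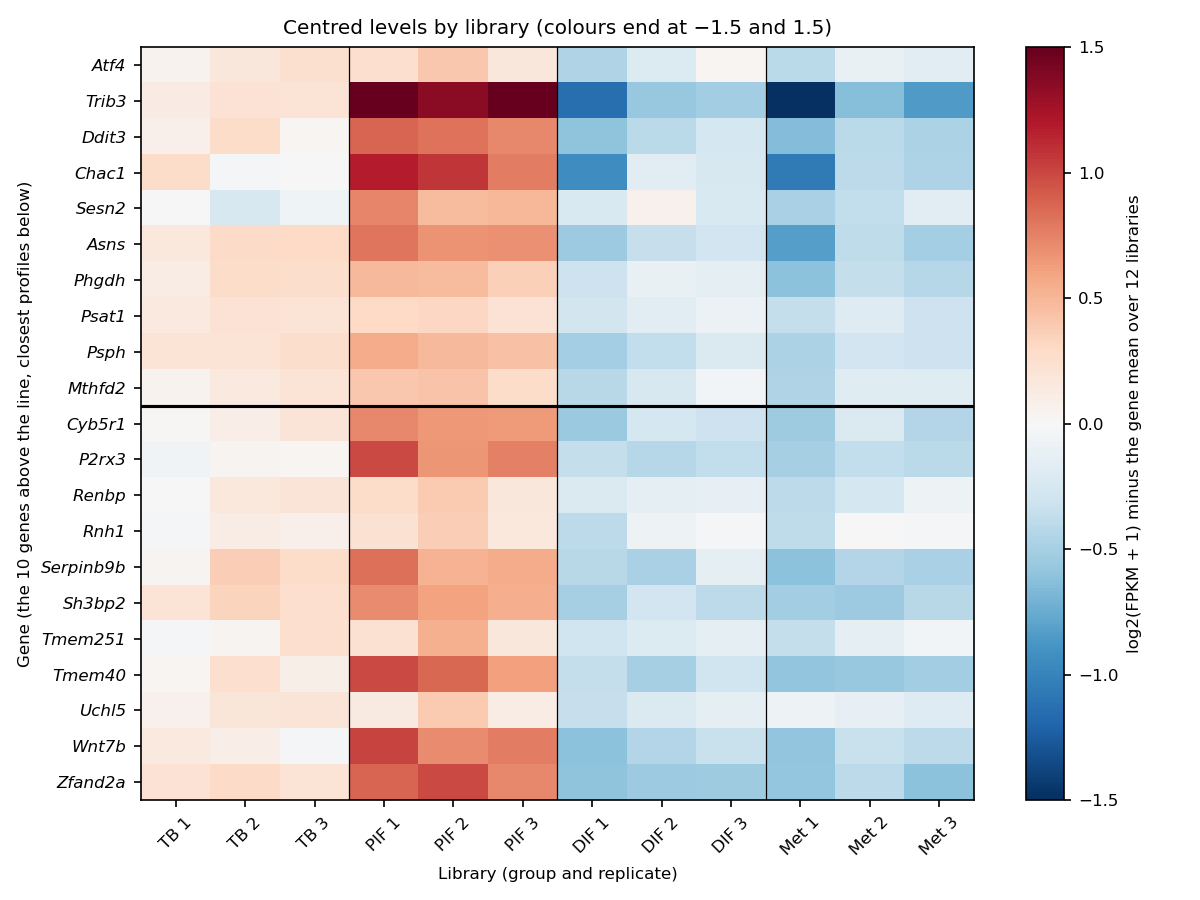
Log2(FPKM + 1) of each gene minus its own mean over the 12 libraries, by library, for the 10 genes (above the line) and the 11 genes with the closest profiles (below it); colours end at −1.5 and 1.5. PIF columns are the highest on average in each row. The genes below the line were chosen for likeness to Atf4, Asns or Ddit3, so their pattern is no separate result. Within DIF and Met, replicate 1 is the lowest column for each of the 10 genes.

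Genes with a profile close to that of Atf4, Asns or Ddit3 were ranked by the mean absolute difference of log2(FPKM + 1), each gene centred on its own mean over the 12 libraries, among 2869 protein-coding genes called by the F test and outside the lists. Closest to Atf4 were Renbp (0.07), Tmem251 (0.07), Rnh1 (0.07) and Uchl5 (0.08), where the median candidate differed by 0.29. Closest to Asns were Cyb5r1 (0.10), Sh3bp2 (0.10), Serpinb9b (0.10) and Zfand2a (0.12), and closest to Ddit3 were Wnt7b (0.08), Tmem40 (0.09), Zfand2a (0.09) and P2rx3 (0.11), with medians of 0.51 for both. Zfand2a, an arsenite-inducible proteasome-associated zinc finger protein, was the only gene named for both Asns and Ddit3. Only the closest few genes were named for each, so others may also lie near to both. Zfand2a stood at 28.5 ± 2.69 FPKM in PIF, 18.1 ± 0.550 in TB, 10.0 ± 0.301 in DIF and 10.2 ± 0.976 in Met. Low genes depended on the added value: with 0.1 in place of 1, the difference of P2rx3 from Ddit3 was 0.57, that of Wnt7b 0.24 and that of Tmem40 0.15, and that of Serpinb9b from Asns was 0.39.

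The wider pathways were examined with lists in which the 10 genes had no place. Over all genes tested, 7.52% were called higher and 6.58% lower in PIF against TB. These shares were 4.26% and 4.36% in DIF against TB and 5.32% and 4.63% in Met against TB. Against PIF they were 9.03% and 9.85% in DIF and 8.85% and 8.8% in Met. Counts of each list are read beside these shares, with no list test. Cytosolic aminoacyl-tRNA synthetases, which charge tRNAs, were called mostly in the directions of the 10 genes: of 20 tested, 8 rose and none fell in PIF against TB, none rose and 14 fell in DIF against PIF, and none rose and 15 fell in Met against PIF. Against TB, 12 fell in Met and 6 in DIF, with none higher. Dars, Farsa, Hars, Kars and Qars, chosen after their values were seen, passed in no comparison. The median log2 differences of the 20 synthetases were small, 0.12 in PIF against TB, −0.24 in Met against TB and −0.40 in Met against PIF. Wars, the tryptophan enzyme, stood at 59.7 ± 3.30 FPKM in PIF, 43.9 ± 1.53 in TB, 33.4 ± 2.23 in DIF and 32.8 ± 1.10 in Met and was called in each comparison but Met against DIF. Nars, which charges the tRNA of asparagine, rose in PIF against TB by 0.22 (adjusted p = 0.031, but 0.0583 to 0.0923 without any 1 of the 6 libraries compared) and fell in Met against TB by 0.31 (adjusted p = 0.0065). The count of 8 became 4 without TB replicate 1, TB replicate 2 or PIF replicate 1 and 5 without TB replicate 3, and the count of 6 in DIF became 1 without TB replicate 3, 2 without TB replicate 2 or DIF replicate 2, and 3 without TB replicate 1 or DIF replicate 1.

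Amino acid transporters rose in PIF: 7 of 13 tested were higher than in TB and none lower, with a median of 0.38, and 10 fell in DIF against PIF and 6 in Met against PIF, where 1 rose. Against TB, none rose and 1 fell in DIF, and 3 rose and 2 fell in Met, with medians of −0.18 and 0.11, so in Met the list did not share the direction of the 10 genes. The Met risers were Slc38a2, Slc38a1 (0.54) and Slc7a6 (0.37), the last 2 chosen after their values were seen; the 5 calls there became 3 without TB replicate 2 or any 1 Met replicate. The DIF count became 2 without Met replicate 1. The count of 7 became 4 without TB replicate 3 or PIF replicate 1. Slc7a3, a carrier of cationic amino acids, followed the order of the 10 genes, at 4.56 ± 0.416 FPKM in PIF, 2.01 ± 0.0856 in TB, 0.783 ± 0.0710 in DIF and 0.621 ± 0.136 in Met. Slc7a11, the cystine carrier, stood at 7.66 ± 0.943, 1.05 ± 0.147, 0.790 ± 0.309 and 1.40 ± 0.351 FPKM in the same order of groups, and its partner chain Slc3a2 at 86.4 ± 6.72, 64.4 ± 2.79, 51.2 ± 6.24 and 52.2 ± 5.02. Slc38a2, a carrier of small neutral amino acids and a known ATF4 target, rose in PIF against TB by 0.48 (adjusted p = 0.0014) but was also higher in Met than in TB, by 0.27 (adjusted p = 0.034). The Met call was lost without TB replicate 2 (0.0961), TB replicate 3 (0.142) or any 1 Met replicate (0.0746 to 0.0966).

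Among 18 other genes of serine, glycine and folate metabolism, 3 rose and 1 fell in PIF against TB, and the median difference was 0.02. Against TB, 1 rose and 3 fell in DIF, and 1 rose and 2 fell in Met; the 4 calls in DIF became 2 without TB replicate 2, TB replicate 3 or DIF replicate 2. Shmt2, which splits serine into glycine and a folate unit in mitochondria, stood at 110 ± 10.9 FPKM in PIF, 84.1 ± 0.5002 in TB, 65.2 ± 7.06 in DIF and 57.2 ± 3.70 in Met and was called in each comparison but Met against DIF. Its cytosolic relative Shmt1, chosen after its values were seen, passed against TB in no group, with differences of 0.17 in PIF, 0.01 in DIF and −0.10 in Met. Shmt1 was called lower in Met against PIF, by −0.27 (adjusted p = 0.032). The call of Shmt2 in PIF against TB was lost without TB replicate 2 (0.0505), TB replicate 3 (0.052) or PIF replicate 1 (0.063), and that in DIF against TB without any 1 TB replicate, DIF replicate 1 or DIF replicate 2 (0.0503 to 0.0837). Mthfd1l, which follows Mthfd2 in mitochondria, fell in DIF and Met against TB (−0.40 and −0.36, adjusted p = 0.0011 and 0.0018), and PIF minus TB was −0.03. Among these 18 genes, only Gldc, of the glycine cleavage system, was called in Met against DIF. Its level was 6.03 ± 0.261 FPKM in PIF, 3.06 ± 0.268 in TB, 1.42 ± 0.239 in DIF and 3.11 ± 0.0858 in Met. It was higher in Met than in DIF by 0.77 (adjusted p = 0.00033). The count of 3 became 2 without TB replicate 2, TB replicate 3 or PIF replicate 1.

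In aspartate, glutamate and proline synthesis, 1 of 12 tested genes rose and 2 fell in PIF against TB. Got1 was the riser, by 0.27 (adjusted p = 0.023), a call lost without TB replicate 2 (0.0993), TB replicate 3 (0.0601) or PIF replicate 2 (0.0596). The 3 calls of this list came to 1 in each of those fits and with the 2 groups alone. Aldh18a1, the first enzyme of proline synthesis from glutamate, fell in Met against TB by 0.50 (adjusted p = 6e-04).

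Upstream of Atf4, of 16 tested genes for eIF2 kinases, eIF2 phosphatase subunits, eIF2 and its exchange factor eIF2B, limma called none in PIF, DIF or Met against TB (3, 4 and 4 at an unadjusted p under 0.05; 0, 1 and 1 with voom), 3 lower in DIF against PIF and 4 lower in Met against PIF. Ppp1r15a, the inducible phosphatase subunit GADD34 and a known ATF4 target, stood at 10.3 ± 0.615 FPKM in PIF, 8.63 ± 1.18 in TB, 6.79 ± 0.439 in DIF and 7.14 ± 0.658 in Met. Its changes against PIF were −0.54 in DIF (adjusted p = 0.0015) and −0.48 in Met (adjusted p = 0.0037). The count of 4 in Met became 1 with the 2 groups alone and 2 without PIF replicate 2, Met replicate 1 or Met replicate 3.

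A wider list of 23 tested genes held ATF4 partners, further stress-response targets and relatives of Trib3, Chac1 and Sesn2, and not all followed the 10. Of these, 9 rose and 1 fell in PIF against TB, 3 rose and 3 fell in DIF against TB, and 3 rose and 5 fell in Met against TB. Against PIF, 3 rose and 8 fell in DIF, and 3 rose and 9 fell in Met. The faller in PIF was Trib2. The risers against TB were Ddit4, Trib2 and Trib1 in DIF and Met alike, Trib1 being chosen after its values were seen. Ero1a, the oxidase of endoplasmic reticulum folding, went with the 10 genes at 14.7 ± 0.869 FPKM in PIF, 8.55 ± 0.278 in TB, 4.92 ± 0.202 in DIF and 5.11 ± 0.241 in Met. Xpot, the export receptor for tRNAs, stood at 25.9 ± 1.04, 18.4 ± 0.489, 15.8 ± 0.332 and 16.1 ± 0.386 FPKM in the same order of groups. Ddit4, the mTORC1 inhibitor REDD1, had its highest levels in DIF and Met instead, at 18.8 ± 2.68 FPKM in PIF, 12.7 ± 0.274 in TB, 38.7 ± 3.59 in DIF and 28.2 ± 3.20 in Met, and rose against TB in all 3 groups. Trib2, a pseudokinase related to Trib3, ran opposite to it at 7.98 ± 0.722, 11.4 ± 0.515, 19.7 ± 3.08 and 17.5 ± 2.79 FPKM in that order. The 9 risers became 5 without TB replicate 2, TB replicate 3 or PIF replicate 1 and 6 without TB replicate 1 or PIF replicate 2. The 8 calls in Met against TB became 4 without TB replicate 2 and 5 without TB replicate 3, Met replicate 1 or Met replicate 3. The 12 calls in Met against PIF became 8 with no filter or without PIF replicate 1, PIF replicate 2 or Met replicate 1.

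**Figure D4:**
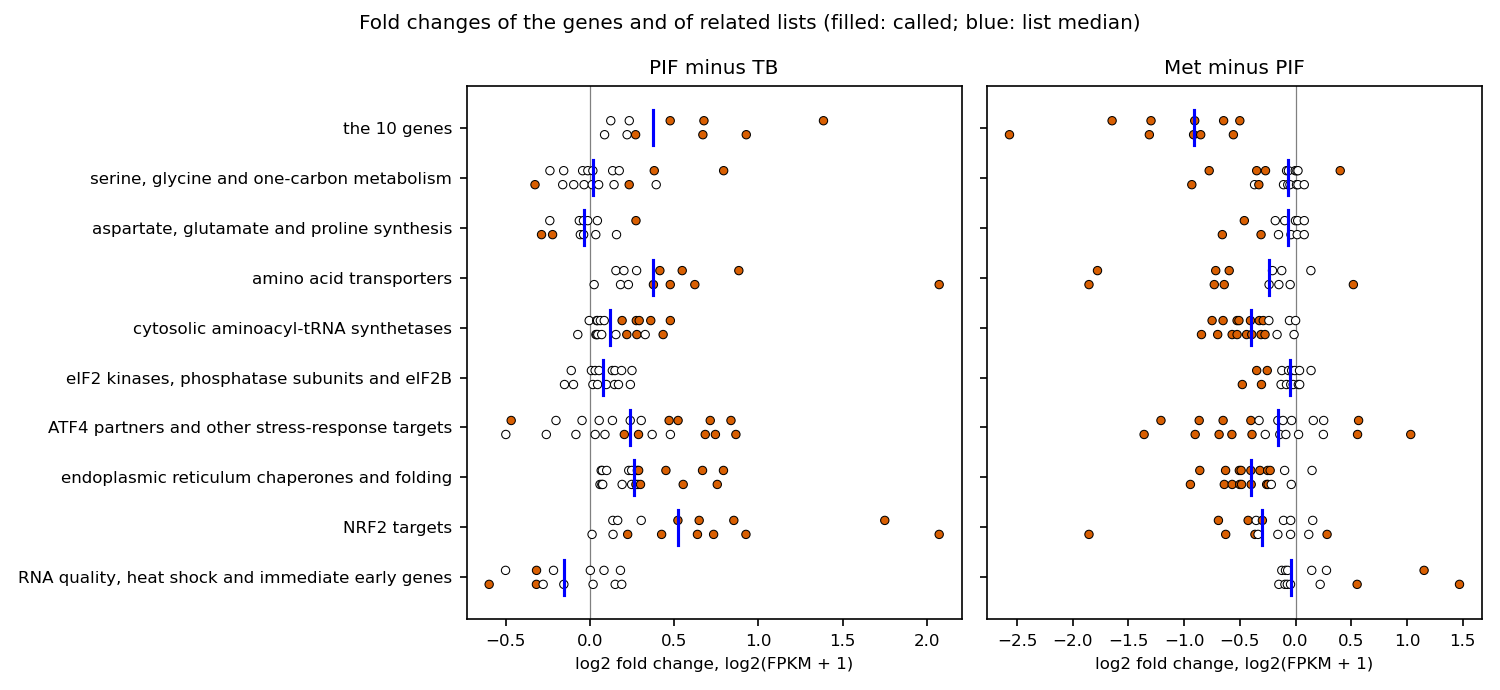
Log2 differences of the genes of each list for PIF minus TB and Met minus PIF; filled points passed an adjusted p under 0.05 and the blue marks are list medians. The 10 genes have medians of 0.37 and −0.91, the tRNA synthetases 0.12 and −0.40, and the transporters 0.38 and −0.24.

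Neighbouring stress programmes moved beside these genes, and their part in the results was not tested. Of 20 endoplasmic reticulum chaperones and folding genes, 9 rose in PIF against TB, 18 fell in DIF against PIF and 16 in Met against PIF, with none the other way. The count of 9 became 5 without PIF replicate 1. Hspa5, the chaperone BiP, stood at 211 ± 26.5 FPKM in PIF, 124 ± 2.24 in TB, 103 ± 4.85 in DIF and 109 ± 7.90 in Met. Of 15 NRF2 targets, the genes of the oxidant response, 10 rose in PIF against TB and 4 in Met against TB, the latter 8 without DIF replicate 1 and Met replicate 1. Against PIF, none rose and 10 fell in DIF, and 1 rose and 6 fell in Met. The 7 calls in Met against PIF became 4 with no filter or without PIF replicate 1 or 2. Nqo1, a quinone reductase, stood at 9.04 ± 2.74 FPKM in PIF and 10.0 ± 1.90 in Met, where Trib3 was at its highest and lowest. Unlike Nqo1, the other NRF2 targets named by the F test were called lower in Met than in PIF: Slc7a11 (−1.85), Prdx1 (−0.69) and Srxn1 (−0.63). Heat shock and immediate early genes were listed with handling in mind, and they are not a measure of RNA quality. Of 13 tested, none rose and 3 fell in PIF against TB, among them Dusp1 from 27.8 ± 1.20 to 18.0 ± 1.13 FPKM. The count of 3 became 1 without TB replicate 2. Against PIF, where all 10 genes fell, 3 of this list rose and none fell in DIF and in Met alike, among them Dusp1 (0.84 and 1.15) and the small heat shock protein gene Hspb1 (1.25 and 1.47). Against TB, 2 rose and none fell in Met, and 1 rose and 1 fell in DIF. The DIF calls became 5, all higher, without DIF replicate 1 and none without any 1 TB replicate, DIF replicate 2, Met replicate 2 or Met replicate 3, and 1 without PIF replicate 1 or DIF replicate 3. Without DIF replicate 1 and Met replicate 1 together, 5 rose in DIF against PIF, and 3 rose and 1 fell in Met against TB.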

How the data were processed

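Paired ends of 150 bases were read from 12 RNA libraries, per the labels' protocols. Per the submitters' processing notes, fastp, HISAT2 2.0.5 and featureCounts 1.5.0-p3 were used; build, annotation and strandedness: not given in the sources used here, so coordinates are as deposited. The authors deposited FPKM, reads scaled by gene length and library size. FPKM times length was a whole multiple of 1 step per library for 100% of values above 0 (tolerance 0.001), which gave the rebuilt reads.

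Genes averaging 0.5 FPKM or more entered a limma fit (version 3.58.1, R 4.3.3) on log2(FPKM + 1) with 1 mean per group, a trend and 8 residual degrees of freedom, two-sided. Calls are Benjamini-Hochberg adjusted p under 0.05 within a comparison over all genes tested. The fit was tested on simulated data. Alternatives were a pseudocount of 0.1, no filter or a filter at 2, the 2 groups alone, quantile normalization, voom, a replicate block and each library left out.

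The 10 genes, the lists and the tests were chosen with earlier results of these data known. Each list names up to 4 genes, those with the smallest F test p; Mars1 and Cct6a were named for their overlap. Counts of a list are read beside those of all genes, with no list test. Promoters are RefSeq's (GRCm38.p6), matched for 10 of 10 symbols.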

Additional observations from a re-analysis of the deposited data

How the results depend on the processing

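Log2 changes of the 10 genes kept their direction under the pseudocount, filter, 2-group, quantile, voom and replicate block alternatives. Directions turned only for differences that were never called, when libraries were left out. DIF minus TB ran from −0.13 to 0.0185 for Sesn2, above 0 without TB replicate 1, DIF replicate 1 (0.0167) or DIF replicate 3 (0.016). Met minus DIF ran from −0.14 to 0.11 for Atf4, −0.0677 to 0.0796 for Psph, −0.43 to 0.0207 for Chac1 and −0.13 to 0.0553 for Mthfd2. Without DIF replicate 1 and Met replicate 1 together, Sesn2 was 0.0167 in DIF minus TB and Psph −0.0115 in Met minus DIF.

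Genes called were 1785 in PIF against TB, 1091 in DIF against TB, 1259 in Met against TB, 2390 in DIF against PIF, 2234 in Met against PIF, 489 in Met against DIF and 3135 by the F test. With the spread of the 2 groups alone, which leaves fewer degrees of freedom, they were 1132 in PIF against TB, 1497 in DIF against PIF and 300 in Met against DIF. Leaving out each library in turn gave 958 to 1843 in PIF against TB, 589 to 1264 in DIF against TB, 793 to 1467 in Met against TB, 1822 to 2384 in DIF against PIF, 1624 to 2298 in Met against PIF, 234 to 595 in Met against DIF and 2377 to 3118 by the F test. Without DIF replicate 1 and Met replicate 1, chosen after seeing the data, 217 genes were called in Met against DIF and 1861 in PIF against TB. Of the 10 genes, 4 to 6, 5 to 8, 6 to 9, 9 to 10, 9 to 10 and 0 were called in the 6 comparisons, in the order above, and 10 by the F test.

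Nothing says whether the replicate numbers pair the samples, and the values do not settle it. Deviations of same-numbered libraries correlated between −0.201 and 0.332, the highest for replicate 1 of Met and DIF. They correlated over 0.1 in 5 of 18 pairs, and 18 of 36 best matches were to the same number. With the replicate block, 6, 8, 8, 10, 10 and 1 of the 10 genes were called, and 1901 genes in PIF against TB; the 1 in Met against DIF was Phgdh (adjusted p = 0.0476), as with quantile normalization. The block also gave calls of Atf4 in DIF against TB (0.0382) and Met against TB (0.0304), and the cause was not tested. Trib3 had the fewest reads of the 10, so counting error weighs most there.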
